A study of Mus musculus with 12 samples.

Results

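The mRNA levels of 32 genes of fatty acid uptake and oxidation were compared between hearts with and without the RNA helicase gene Ddx5. The genes were chosen by name for their step in the pathway, from lipid entry into the cardiomyocyte to the passing of electrons from beta-oxidation to the respiratory chain. All 32 were found in both count tables of the series, which hold 17260 and 17325 genes, 16673 of them in common. All 32 also passed the filter on low counts, and their counts per library ranged from 93 for Acot1 to 300662 for Lpl.

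The study deleted Ddx5 in cardiomyocytes to learn what the helicase does in the heart, and sequenced polyadenylated RNA of left ventricles from male mice in 4 groups of 3 libraries. The constitutive knockout, mCKO, had the genotype DDX5fl/fl MYH6Cre+ and was taken untreated at 8 weeks of age, beside untreated Ddx5flox/flox controls of the same age, CTR1. The inducible knockout, iCKO, had the genotype Ddx5flox/flox Myh6MerCreMer, and its controls, CTR2, were Ddx5flox/flox. Both of these groups received tamoxifen by intraperitoneal injection at 20 mg per kg and day for 5 days, and the design text names 7 days after tamoxifen without saying from which injection they were counted. The age of the iCKO and CTR2 mice is described only as matched between them. All 4 groups share the floxed allele, and the promoter of Myh6, a cardiomyocyte myosin gene, drives Cre in both knockouts. Neither control group carries a Cre, so effects of Cre itself, or of MerCreMer with tamoxifen, and of the loss of Ddx5 cannot be told apart. The labels do not state that the replicates are separate animals, so the p-values measure the spread between these libraries, which may be technical.

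The adult heart makes much of its ATP from long-chain fatty acids. Lipoprotein lipase frees them from circulating triglycerides, CD36 and other membrane proteins take them in, and acyl-CoA synthetases tie them to coenzyme A. The carnitine shuttle carries the acyl groups across the inner mitochondrial membrane under the control of malonyl-CoA, and beta-oxidation then cuts them to acetyl-CoA. Nuclear receptors of the PPAR, RXR and ERR families and their coactivator PGC-1 are known to drive transcription of many of these genes.

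The pathway genes lie on 15 chromosomes, and 2 pairs of them lie side by side, Acot1 with Acot2 and Hadha with Hadhb. Hadha and Hadhb encode the alpha and beta subunits of the mitochondrial trifunctional protein and start on opposite strands of chromosome 5. The 85 bases between their annotated ends are shown because the subunit genes had similar changes in each knockout. This was not particular to the pair. In iCKO Hadha (-1.79 on the log2 scale) was nearer to Echs1 (-1.78), and Hadhb (-2.01) to Etfdh (-2.01), both on other chromosomes. A link of the interval to the changes was not tested. The interval, chr5:30155163-30155247 of GRCm38, is printed on the plus strand, toward Hadhb, and 69.4% of its bases are G or C.
Hadha-Hadhb interval: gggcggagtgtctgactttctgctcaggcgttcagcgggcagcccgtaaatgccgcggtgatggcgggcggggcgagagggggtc
The other sequences are upstream stretches from the RefSeq annotation of GRCm38.p6, 250 to 31 bases before an annotated start, in the direction of the gene. They are shown because the receptors named above read the letters AGGTCA, which are in capitals here, as TGACCT where they lie on the opposite strand. Promoter entries matched 26 of the 32 genes. Within windows of 250 bases before to 50 bases after a start, AGGTCA on either strand was found in 7 of the 26 genes (Acacb, Acadm, Acadvl, Cd36, Cpt1a, Echs1 and Ucp3). This was 26.9%, against 18.1% of the 27025 genes of the table and 16.3% of its 32851 windows. The 5 stretches printed are those that hold the letters before the start and lie outside annotated exons.
Ucp3, chr7:100472741-100472960, plus strand: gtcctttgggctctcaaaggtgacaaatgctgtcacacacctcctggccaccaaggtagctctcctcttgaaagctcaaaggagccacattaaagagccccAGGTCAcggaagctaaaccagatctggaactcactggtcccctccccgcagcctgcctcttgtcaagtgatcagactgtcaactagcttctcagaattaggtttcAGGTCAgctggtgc
Cd36, chr5:17835927-17836146, minus strand: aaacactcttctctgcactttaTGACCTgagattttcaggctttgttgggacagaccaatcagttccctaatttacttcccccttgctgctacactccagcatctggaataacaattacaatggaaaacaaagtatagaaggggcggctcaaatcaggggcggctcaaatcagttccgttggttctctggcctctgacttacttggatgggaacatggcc
Acadm, chr3:153944674-153944893, minus strand: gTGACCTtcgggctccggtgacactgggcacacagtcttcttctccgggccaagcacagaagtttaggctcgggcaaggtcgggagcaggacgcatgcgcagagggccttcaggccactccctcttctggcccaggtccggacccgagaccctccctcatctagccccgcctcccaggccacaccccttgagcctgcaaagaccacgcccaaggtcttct
Acadvl, chr11:70015459-70015678, minus strand: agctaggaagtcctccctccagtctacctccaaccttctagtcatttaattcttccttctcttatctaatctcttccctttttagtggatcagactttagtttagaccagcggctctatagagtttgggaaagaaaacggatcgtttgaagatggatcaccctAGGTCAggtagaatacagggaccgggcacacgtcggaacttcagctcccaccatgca
Cpt1a, chr19:3323051-3323270, plus strand: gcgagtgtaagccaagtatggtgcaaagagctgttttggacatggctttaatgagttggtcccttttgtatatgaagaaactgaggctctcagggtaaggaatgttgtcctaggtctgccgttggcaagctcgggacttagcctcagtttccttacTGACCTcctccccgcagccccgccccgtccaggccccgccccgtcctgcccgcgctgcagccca
Ucp3 holds the letters at 2 places and the other 4 genes at 1. The longer forms, which overlap AGGTCA, were found in none of the 26 genes. These were the direct repeat of AGGTCA with 1 base between its copies, read by PPAR with RXR, which is in 0.0396% of all windows, and the extended half-site TNAAGGTCA, read by ERR, which is in 1.28%. A match is a description of the letters, and says nothing of binding in these hearts.

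Ddx5 itself was lower in every knockout library, as the labels say. It stood at 636, 635 and 396 counts-per-million (CPM, on library sizes scaled by TMM) in CTR1 replicates 1, 2 and 3 and at 233, 232 and 218 in mCKO. The corresponding levels were 566, 696 and 597 CPM in CTR2 and 216, 219 and 192 in iCKO. The knockouts kept 40.9% and 33.7% of the control mean, and neither overlapped its controls (two-sided exact permutation test, p = 0.1 for each, the smallest that 3 against 3 allows). In edgeR the log2 fold change, with its standard error after ±, was -1.57 ± 0.15 in iCKO (adjusted p = 0.00017). In mCKO it was -1.29 ± 0.20 without a block for the replicate number (adjusted p = 0.17) and -1.26 ± 0.12 with it (adjusted p = 0.0019). Libraries held 19682268 to 25871882 counts. The libraries numbered 3 of CTR1 and mCKO stood apart from the others: the first principal component of that experiment took 59.8% of the variance and separated them from numbers 1 and 2 of both groups. Same-numbered libraries of CTR1 and mCKO deviated together, as did numbers 1 and 2 across the groups whichever way they were matched. Fits with the replicate number as a block are given beside those without it in that experiment. Cardiomyocyte markers were abundant in all libraries, with 10 genes summing to 57114 CPM or more.

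In the constitutive knockout most of the 32 genes were lower by a small margin, at every step of the pathway, and whether they passed the test depended on the block. Across all genes the edgeR quasi-likelihood test without the block called 0 of 13353 genes, or 0.00%, at an adjusted p under 0.05, and so none of the 32, whose smallest adjusted p was that of Acot1 (0.25). At an unadjusted p under 0.05 it found 1164 genes, among them 13 of the 32, all lower. Without the block DESeq2 called 5 of the 32 (Acot1, Cpt2, Crat, Echs1 and Decr1), all lower, against 2.32% of all genes in either direction. limma-voom called 0. With the block, edgeR called 22 of the 32 lower and 0 higher (0 also at an unadjusted p under 0.05), against 6.45% of all tested genes called lower and 7.32% called higher. The median log2 fold change of the 32 was -0.30 with the block, where that of all genes was near 0 (0.0048). In 19 of the 32, every mCKO library lay below every CTR1 library, which held for 7.32% of all genes tested, while 7.68% lay higher without overlap. In bulk ventricle, fewer cardiomyocytes and less RNA per cardiomyocyte cannot be told apart.

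With both libraries numbered 3 left out and no block, 18 of the 32 were called lower, against 3.94% of all genes called lower and 3.85% called higher, and 17 of these were among the 22. The calls of Acads, Acot2, Cd36, Etfb and Vldlr were lost and that of Ucp3 was gained. Scaling by library totals alone, with the block, lost the same 5 calls and kept 17, and changed the split of all called genes from 978 higher and 861 lower to 1581 higher (11.8%) and 474 lower (3.55%). With the block and both libraries of a number left out, 18 of the 32 were called lower without number 1, against 5.52% of 13453 genes lower and 5.69% higher. Without number 2 they were 17, against 3.31% of 13488 genes lower and 4.79% higher. Without number 3 they were 6, against 1.27% of 13357 genes lower and 1.63% higher. These last alternatives were chosen after the data were seen.

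The inducible knockout differed from its controls far more. Of the 32 genes 31 were called lower and 0 higher by edgeR without a block (0 higher also at an unadjusted p under 0.05), against 19.5% of 13548 tested genes called lower and 25.2% called higher. The same 31 had no overlap between iCKO and CTR2, which was the case in that direction for 27.0% of all genes and in the other for 31.9%. The median log2 fold change of the 32 was -1.65, against 0.028 for all genes. Cpt1a, the liver isoform of carnitine palmitoyltransferase, was the 1 gene not called. Scaling by library totals alone moved the median of all genes to 0.24 and that of the 32 to -1.44, and the 31 calls were made there too. It changed the split of all called genes from 3420 higher and 2648 lower to 4592 higher and 1832 lower. The 32 genes together took 3.08 to 3.20% of all counts in CTR1, 2.57 to 2.89% in mCKO, 3.48 to 3.80% in CTR2 and 1.14 to 1.35% in iCKO.

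**Figure D1:**
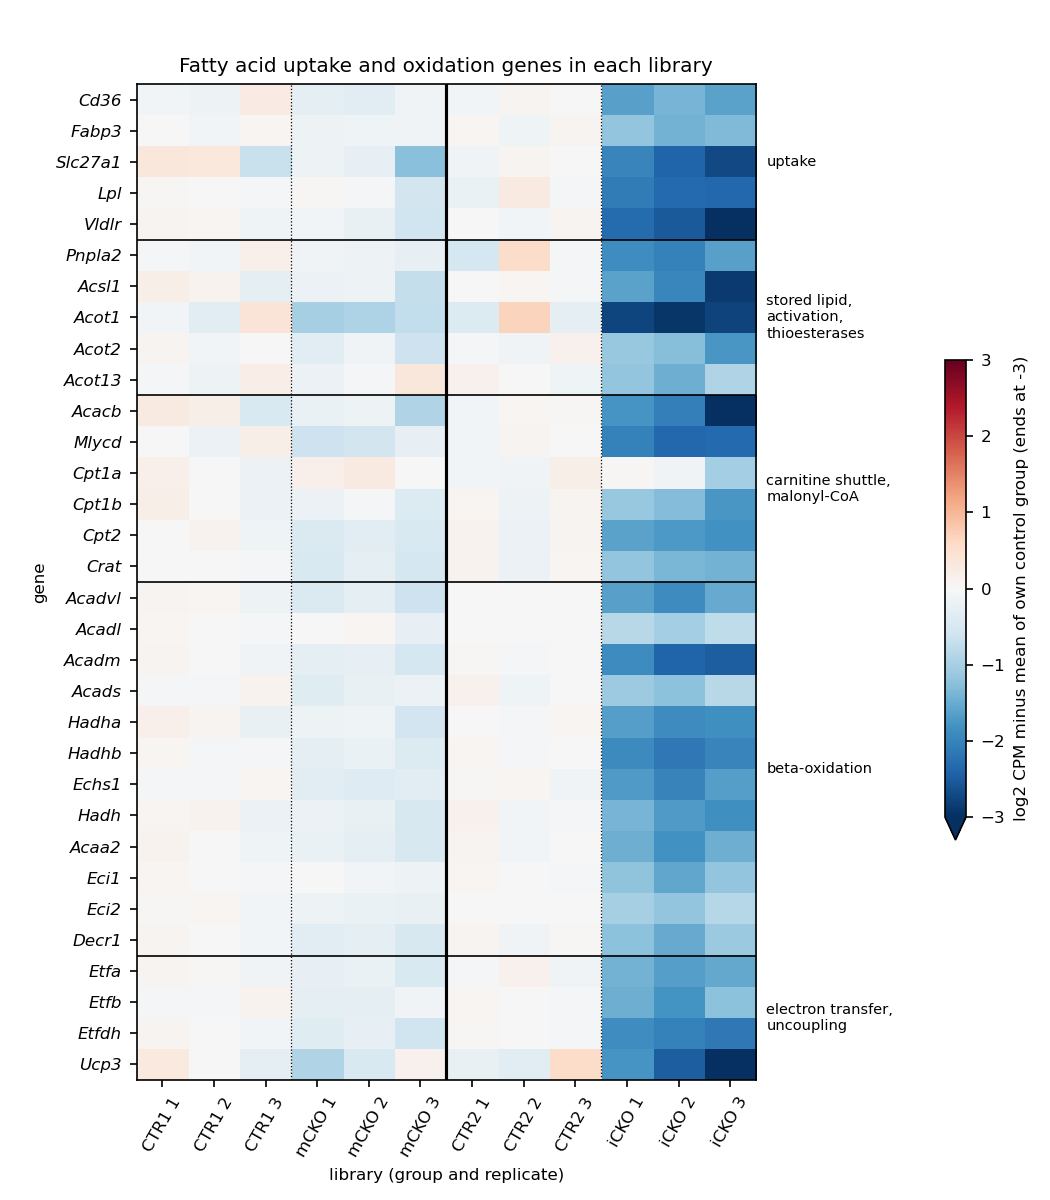
Heat map of the 32 genes (rows, grouped by step) in the 12 libraries (columns). Colour gives log2 CPM minus the mean of the gene's own control group, and the darkest blue stands for -3 and lower. The iCKO columns are blue for every gene but Cpt1a, which is near white in replicates 1 and 2, while mCKO columns are pale, with replicate 3 the darkest for many genes.

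Lipid uptake was the step with the lowest median in iCKO. All 5 uptake genes fell there, with a median of -2.27, and 3 of the 5 (Cd36, Slc27a1 and Vldlr) were called lower in mCKO with the block, with a median of -0.23. Differences between genes were not tested.

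Lpl, the lipase that frees fatty acids from lipoproteins in the capillaries, stood at 10106, 14153 and 11178 CPM in CTR2 and 2742, 2328 and 2271 in iCKO. It kept 20.7% of the control mean (-2.27 ± 0.18 on the log2 scale, edgeR adjusted p = 8.5e-05). CTR2 replicate 2 was the highest library, 1.33 times the mean of the other two, and the groups were far apart all the same. In CTR1 Lpl stood at 5905, 5779 and 5591 CPM and in mCKO at 5888, 5565 and 3958, so that the groups overlapped and mCKO replicate 3 alone was well below the controls (-0.19 ± 0.10, adjusted p = 0.27 with the block). Vldlr, a receptor that binds triglyceride-rich lipoproteins, went from 662, 631 and 701 CPM in CTR2 to 135, 115 and 72.4 in iCKO (-2.63 ± 0.24, adjusted p = 0.00013), with iCKO replicate 3 the lowest. Its levels were 409, 402 and 355 CPM in CTR1 and 368, 330.4 and 257 in mCKO (-0.30 ± 0.07, adjusted p = 0.019 with the block). The mCKO range overlapped that of CTR1, through replicate 3 of the controls.

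Cd36, the membrane translocase of long-chain fatty acids, measured 2244, 2539 and 2401 CPM in CTR2 and 774, 903 and 788 in iCKO (-1.54 ± 0.15, adjusted p = 0.00015). For CTR1 the values were 1662, 1593 and 2083 CPM and for mCKO 1448, 1419 and 1651 (-0.23 ± 0.06, adjusted p = 0.028 with the block). Replicate 3 was the highest library of both CTR1 and mCKO for Cd36, and each mCKO library lay below the control of its number. Slc27a1, a transport protein with acyl-CoA synthetase activity, measured 316, 312 and 158 CPM in CTR1 and 224, 212 and 104 in mCKO. Replicate 3 was about 1 log2 unit below the other two in both groups (-0.99 and -1.06), so the groups overlapped. The fold change was -0.55 ± 0.06 with the block (adjusted p = 0.00041), and -0.54 ± 0.37 without it (adjusted p = 0.82). In iCKO Slc27a1 fell to 68.8, 51.6 and 41.9 CPM from 252, 288 and 276 in CTR2 (-2.33 ± 0.20, adjusted p = 0.00012), and the groups did not overlap.

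Fabp3, the heart-type binding protein that carries fatty acids through the cytosol, was the most abundant of the 32 per length. It stood at 5156, 4836 and 5309 CPM in CTR1 and 4563, 4641 and 4723 in mCKO (-0.13 ± 0.06, adjusted p = 0.13 with the block). The mCKO libraries all lay below CTR1, by a margin that did not pass the test. Fabp3 then went from 3753, 3319 and 3808 CPM in CTR2 to 1585, 1363 and 1446 in iCKO (-1.31 ± 0.14, adjusted p = 0.00029). Of its transcript, 37.3% of the 50-base stretches also occur in other genes, mainly the pseudogene Fabp3-ps1, so its counts depend on how shared reads were assigned.

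**Figure D2:**
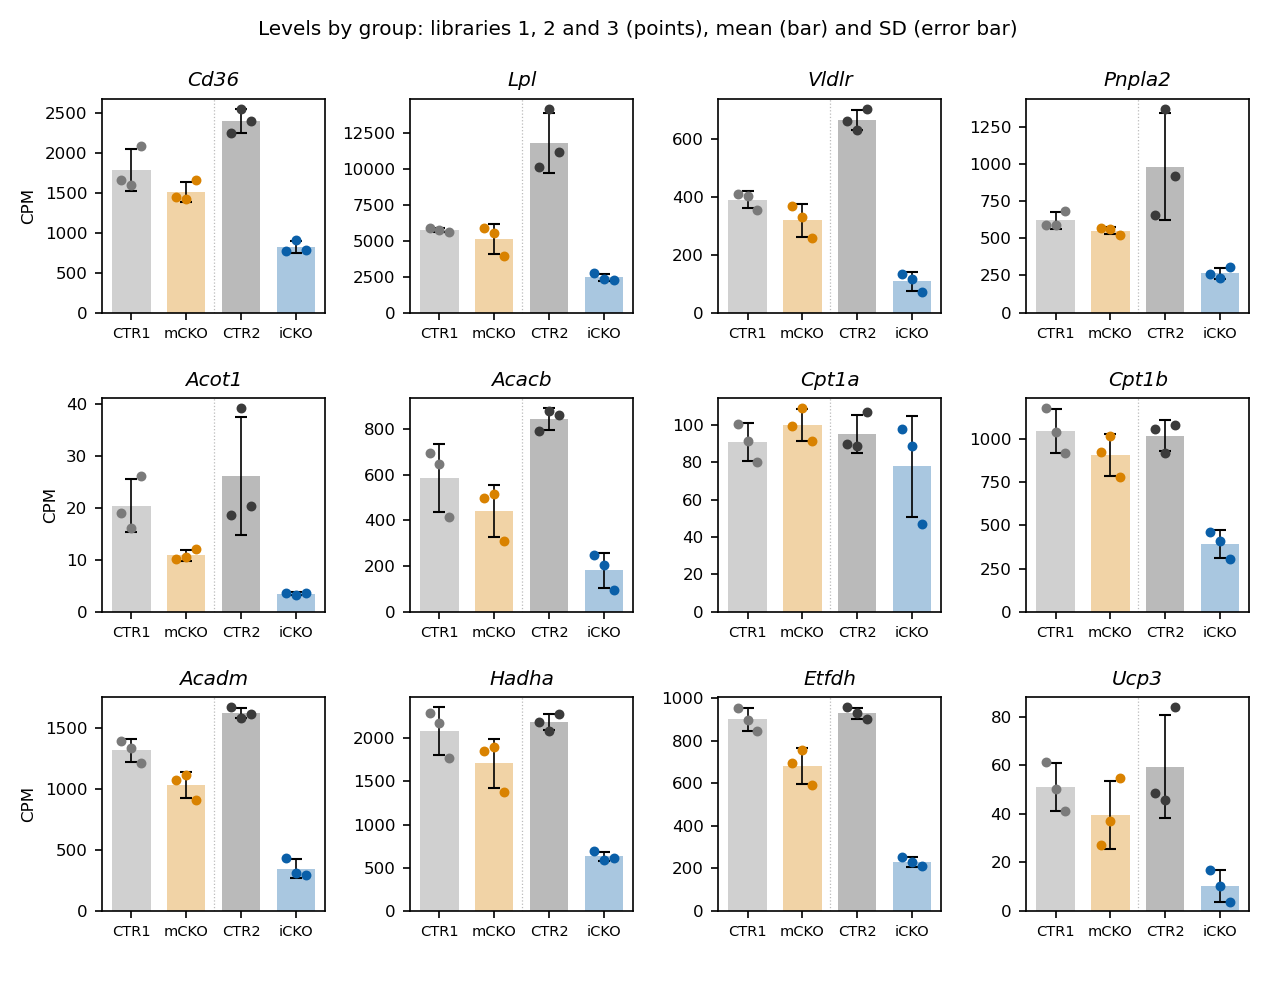
CPM of 12 of the genes in the 4 groups, with 3 libraries as points, the mean as a bar from 0 and the SD as an error bar. Cd36, Lpl, Vldlr and the other genes shown lie far lower in iCKO than in CTR2, with the exception of Cpt1a, whose iCKO libraries at 97.7 and 88.6 CPM lie within the CTR2 range.

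Among genes for stored lipid, activation and thioesterases, all 5 fell in iCKO (median -1.89) and 3 of 5 were called lower in mCKO with the block (median -0.35). Acot1, a cytosolic thioesterase that splits acyl-CoA, had the lowest log2 fold change of the 32 in both knockouts. It stood at 18.97, 16.1 and 26.1 CPM in CTR1 and 10.1, 10.5 and 12.05 in mCKO (-0.89 ± 0.11, adjusted p = 0.00082 with the block), with no overlap. The inducible experiment gave 18.6, 39.2 and 20.4 CPM in CTR2 and 3.65, 3.28 and 3.58 in iCKO (-2.90 ± 0.30, adjusted p = 0.00025). CTR2 replicate 2 was 2.01 times the mean of the other two, and the iCKO libraries were nearly equal. Acot1 is also the least abundant of the 32.

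Acot2, the mitochondrial paralog, measured 84.2, 75.2 and 78.4 CPM in CTR1 and 62.8, 73.05 and 51.8 in mCKO (-0.35 ± 0.10, adjusted p = 0.048 with the block), with no overlap. It fell to 37.4, 33.8 and 24.5 CPM in iCKO from 80.2, 76.4 and 89.8 in CTR2 (-1.36 ± 0.18, adjusted p = 0.00069). The pair lies in tandem on chromosome 12 with 15616 bases between the genes, and their coding sequences are 95.6% identical. Stretches of 50 bases found in other genes make up 33.6% of the Acot1 transcript and 27.7% of that of Acot2, so their separate values are uncertain. Acot13, another thioesterase found at mitochondria, was not called in mCKO. It stood at 291, 270.3 and 341 CPM in CTR1 and 263, 294 and 381 in mCKO (0.045 ± 0.07, adjusted p = 0.74 with the block), a value whose sign turned to -0.011 without the libraries numbered 3. Its iCKO libraries held 121, 99.8 and 146 CPM against 297, 277 and 249 in CTR2 (-1.17 ± 0.18, adjusted p = 0.0012), all below the controls.

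Acsl1, the main long-chain acyl-CoA synthetase of the heart, measured 1406, 1347 and 1035 CPM in CTR1 and 1105, 1134 and 760.2 in mCKO (-0.35 ± 0.06, adjusted p = 0.0051 with the block). Replicate 3 was the lowest library in both groups, and the groups overlapped. Acsl1 went from 1376, 1403 and 1292 CPM in CTR2 to 447, 347 and 186 in iCKO (-2.06 ± 0.29, adjusted p = 0.00090), and iCKO replicate 3 held 0.467 times the mean of the other two. Pnpla2, the lipase that starts the breakdown of stored triglyceride, varied within the controls, at 655, 1368 and 917 CPM in CTR2, against 257, 231 and 304 in iCKO (-1.89 ± 0.27, adjusted p = 0.00088). Even the lowest control was above the highest iCKO library. In CTR1 it stood at 590.4, 587 and 686 CPM and in mCKO at 572, 561 and 524 (-0.17 ± 0.08, adjusted p = 0.18 with the block), lower without overlap but not called.

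The carnitine shuttle and its malonyl-CoA control moved unevenly. Of 6 genes 5 fell in iCKO (median -1.55) and 4 were called lower in mCKO with the block (median -0.41). The enzyme that makes malonyl-CoA, an inhibitor of carnitine palmitoyltransferase, and the enzyme that destroys it both fell, by similar amounts. Cpt1b, the muscle isoform of the transferase, fell in iCKO while Cpt1a did not pass the test in either experiment.

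Acacb, the acetyl-CoA carboxylase at the outer mitochondrial membrane that makes malonyl-CoA, stood at 791, 881 and 860.2 CPM in CTR2 and 246, 203 and 96.7 in iCKO (-2.21 ± 0.31, adjusted p = 0.00088). Mlycd, malonyl-CoA decarboxylase, stood at 176, 198 and 186 CPM in CTR2 and 45.7, 36.7 and 37.2 in iCKO (-2.23 ± 0.15, adjusted p = 6.1e-05). Both kept about the same share of the control mean, 21.6% and 21.4%, although the iCKO libraries spread more for Acacb. In the constitutive experiment Acacb measured 695, 648 and 416 CPM in CTR1 and 500.0, 516 and 309 in mCKO (-0.41 ± 0.06, adjusted p = 0.0021 with the block). The corresponding values of Mlycd were 161, 143 and 180.4 CPM and 105, 109 and 136 (-0.47 ± 0.07, adjusted p = 0.0016 with the block). Mlycd had no overlap, while the CTR1 and mCKO ranges of Acacb overlapped through replicate 3, which was low in both groups.

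Cpt1a and Cpt1b encode isoforms of the outer-membrane enzyme that moves the acyl group from coenzyme A to carnitine, and their coding sequences are 69.0% identical. Cpt1b stood at 1055, 918 and 1083 CPM in CTR2 and 461, 412 and 303 in iCKO (-1.38 ± 0.19, adjusted p = 0.00075). Cpt1a stood at 89.7, 88.5 and 107 CPM in CTR2 and 97.7, 88.6 and 47.01 in iCKO (-0.29 ± 0.26, adjusted p = 0.39). For Cpt1a iCKO replicates 1 and 2 lay within the control range and replicate 3, at 0.505 times their mean, lay below it. Without iCKO replicate 3 its log2 fold change was -0.070, and with both libraries numbered 3 left out and the block kept it was 0.014, a reversed sign near 0.

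In the constitutive experiment Cpt1a measured 101, 91.05 and 80.2 CPM in CTR1 and 99.5, 109 and 91.5 in mCKO (0.14 ± 0.07, adjusted p = 0.20 with the block). Cpt1b measured 1178, 1042 and 921 CPM in CTR1 and 922, 1019 and 780.5 in mCKO (-0.21 ± 0.07, adjusted p = 0.075 with the block). Neither was called, and both overlapped their controls. The ratio of Cpt1a to Cpt1b counts within a library, which was not among the planned tests, separated the groups in both experiments. It is built from the same counts as the levels above and is no separate measurement. It was 0.0854, 0.0873 and 0.0871 in CTR1 and 0.108, 0.107 and 0.117 in mCKO. In the inducible experiment it was 0.0851, 0.0964 and 0.0988 in CTR2 and 0.212, 0.215 and 0.155 in iCKO. The mean ratio was 1.28 times the control in mCKO and 2.08 times in iCKO, with no overlap (two-sided exact permutation test, p = 0.1 for each, the smallest possible with 3 against 3). The exons of Cpt1b overlap those of Gm44502, a gene model on the same strand, over 81.4% of their length, so reads of these could not be separated by position and its values are uncertain.

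Cpt2, which returns the acyl group to coenzyme A inside the mitochondrion, stood at 295, 315 and 267 CPM in CTR1 and 215, 230.3 and 211 in mCKO (-0.41 ± 0.06, adjusted p = 0.0022 with the block). Its inducible values were 264, 216 and 260.0 CPM in CTR2 and 80.2, 73.99 and 69.2 in iCKO (-1.73 ± 0.15, adjusted p = 0.00012). Both knockouts lay below their controls in every library. Crat, carnitine acetyltransferase, which passes surplus acetyl groups to carnitine, measured 905, 906 and 883 CPM in CTR1 and 653, 738 and 623 in mCKO (-0.42 ± 0.07, adjusted p = 0.0022 with the block). It fell from 928, 764 and 888 CPM in CTR2 to 376, 334 and 321 in iCKO (-1.32 ± 0.15, adjusted p = 0.00034). Crat and Cpt2 kept nearly equal shares of CTR1 in mCKO, 74.7% and 74.95%.

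**Figure D3:**
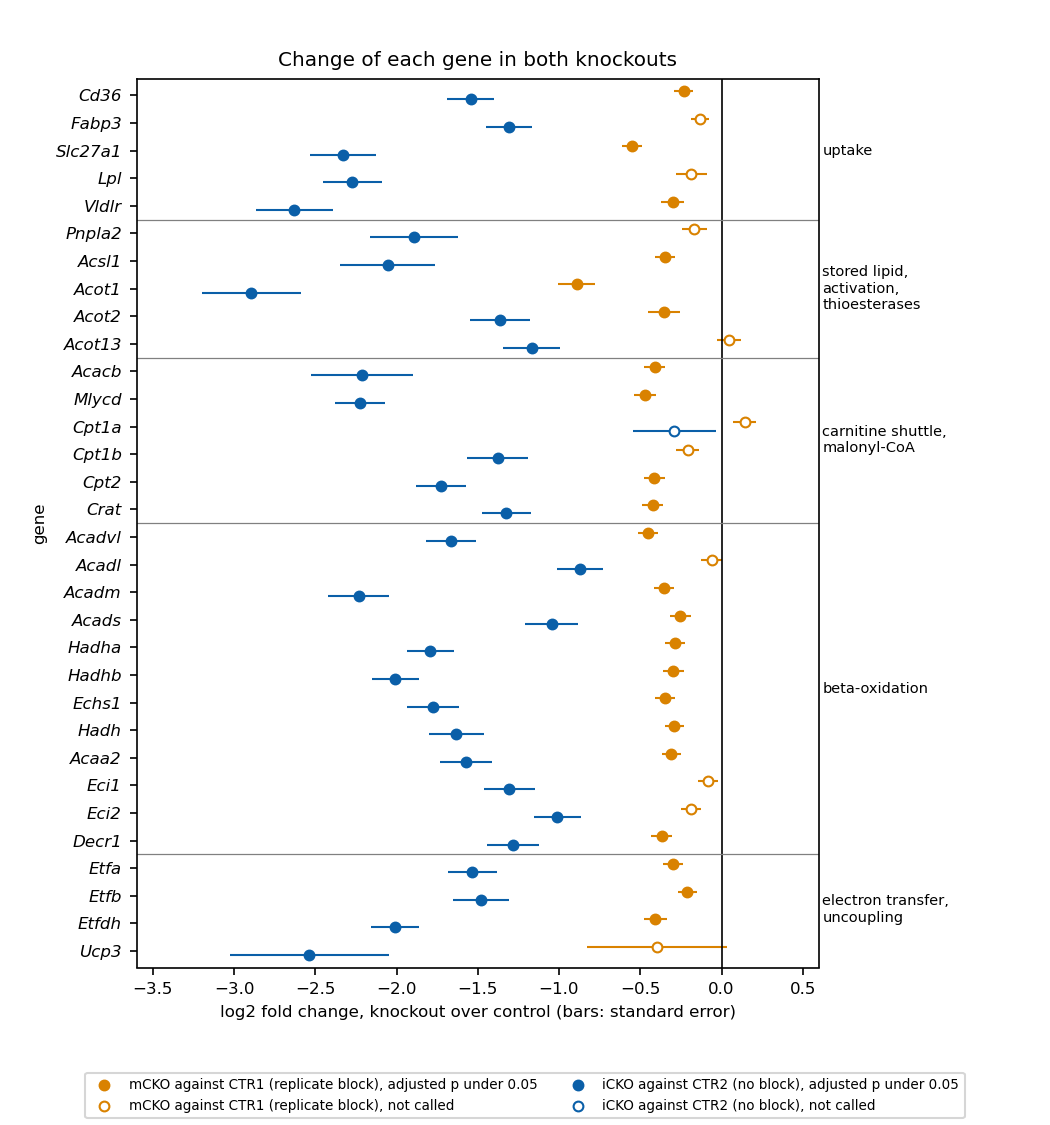
Log2 fold change (horizontal axis, with its standard error as a bar) of each of the 32 genes in mCKO against CTR1 with the replicate block (orange) and in iCKO against CTR2 (blue). Filled points passed an adjusted p of 0.05. The iCKO points of all genes but Cpt1a lie at -0.87 or further left, and the mCKO points lie between -0.89 and 0.14.

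All 12 genes of the beta-oxidation cycle fell in iCKO (median -1.60), and 9 of the 12 were called lower in mCKO with the block (median -0.29). The acyl-CoA dehydrogenases, which take the first step of the cycle and differ in the chain length they accept, did not fall alike in iCKO. Acadm for medium chains kept 21.3% of the control mean and Acadvl for very long chains 31.5%, while Acads for short chains kept 48.4% and Acadl for long chains 54.8%. The mCKO order differed, with the lowest share for Acadvl (73.1%) and the highest for Acadl (96.2%).

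Acadm stood at 1666, 1582 and 1610.5 CPM in CTR2 and 435, 306 and 293 in iCKO (-2.23 ± 0.19, adjusted p = 0.00011). Acadl, by contrast, measured 1458, 1481 and 1445 CPM in CTR2 and 822, 715 and 863 in iCKO (-0.87 ± 0.14, adjusted p = 0.0017). The controls were tight for both genes and the knockout ranges lay well apart from them. Acadvl fell from 1573, 1586 and 1609 CPM in CTR2 to 517, 428 and 558 in iCKO (-1.67 ± 0.15, adjusted p = 0.00014). Acads fell from 293, 248 and 269.9 CPM in CTR2 to 127, 115 and 151 in iCKO (-1.05 ± 0.16, adjusted p = 0.0012). Neither gene's groups overlapped.

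In mCKO Acadvl measured 1013, 1116 and 894 CPM against 1466, 1430.1 and 1237 in CTR1 (-0.45 ± 0.06, adjusted p = 0.0011 with the block). Acadm measured 1069.5, 1112 and 910.2 CPM against 1393, 1332 and 1213 (-0.35 ± 0.06, adjusted p = 0.0042 with the block). Acads measured 228, 252 and 259 CPM against 283, 284 and 314 (-0.25 ± 0.06, adjusted p = 0.023 with the block). These 3 dehydrogenases had no overlap between mCKO and CTR1. Acadl did overlap, at 1167, 1208 and 981 CPM against 1208, 1161 and 1122 (-0.061 ± 0.07, adjusted p = 0.59 with the block). Its sign turned, to 0.014, when library totals alone set the scale with the block. The exons of Acadvl overlap those of Dvl2 on the opposite strand over 42.9% of their length, and no source used here says whether counting used the strand.

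The trifunctional protein, whose subunits share the short interval printed above, carries out the later steps of the cycle for long chains. Hadha stood at 2192, 2089 and 2281 CPM in CTR2 and 694, 587 and 613 in iCKO (-1.79 ± 0.14, adjusted p = 9.0e-05). Hadhb stood at 1639, 1526 and 1569.8 CPM in CTR2 and 419, 356 and 402 in iCKO (-2.01 ± 0.14, adjusted p = 6.9e-05). The subunits kept 28.9% and 24.9% of the control mean, and iCKO replicate 2 was the lowest library for each. In the constitutive experiment Hadha measured 2298, 2175 and 1766 CPM in CTR1 and 1848, 1904 and 1383 in mCKO (-0.29 ± 0.06, adjusted p = 0.010 with the block). Hadhb measured 1463, 1382 and 1376 CPM in CTR1 and 1156, 1227 and 1060.0 in mCKO (-0.30 ± 0.06, adjusted p = 0.012 with the block). Their log2 fold changes there were nearly the same, although Hadha overlapped its controls and Hadhb did not. In the Hadhb transcript 62.4% of 50-base stretches occur in other genes, mainly the pseudogene Gm13910, which makes its counts uncertain.

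Soluble enzymes take the shorter chains through the same steps. Echs1, the short-chain enoyl-CoA hydratase, went from 469.6, 481 and 429 CPM in CTR2 to 141, 115 and 146 in iCKO (-1.78 ± 0.16, adjusted p = 0.00012). Hadh, the hydroxyacyl-CoA dehydrogenase that follows it, went from 726, 622 and 641 CPM to 253, 203 and 186 (-1.63 ± 0.17, adjusted p = 0.00023). Acaa2, the ketoacyl-CoA thiolase that closes the cycle, went from 1053, 932 and 999 CPM to 358, 283 and 363 (-1.57 ± 0.16, adjusted p = 0.00020). All 3 kept between 29.2% and 33.6% of the control mean. In mCKO Echs1 stood at 365, 357 and 376 CPM against 455, 456 and 485 in CTR1 (-0.35 ± 0.06, adjusted p = 0.0045 with the block). Hadh stood at 579.9, 567 and 474 CPM against 690.2, 708 and 583 (-0.29 ± 0.06, adjusted p = 0.010 with the block). Acaa2 stood at 1057, 1004 and 868 CPM against 1293, 1223 and 1105 (-0.31 ± 0.06, adjusted p = 0.0065 with the block). Every mCKO library lay below every CTR1 library for these 3 genes.

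Unsaturated fatty acids need auxiliary enzymes that move or remove double bonds, and these fell less than the median of the 32 in iCKO. Eci1, an enoyl-CoA isomerase, measured 325, 309.9 and 307 CPM in CTR2 and 137, 107 and 138 in iCKO (-1.31 ± 0.16, adjusted p = 0.00041). Eci2, another isomerase, measured 182, 186 and 184 CPM and 92.1, 80.4 and 101 (-1.01 ± 0.14, adjusted p = 0.00088). Decr1, the dienoyl-CoA reductase, measured 548, 482 and 529 CPM and 220.0, 182 and 239 (-1.28 ± 0.16, adjusted p = 0.00048). Their iCKO ranges lay apart from CTR2 in all 3 cases. In mCKO Decr1 stood at 378, 398 and 346 CPM against 514, 479 and 455 in CTR1 (-0.37 ± 0.06, adjusted p = 0.0044 with the block). Eci1 stood at 334, 315 and 302 CPM against 349, 335 and 322 (-0.081 ± 0.06, adjusted p = 0.43 with the block). Eci2 stood at 171, 167 and 163 CPM against 194, 197 and 180.5 (-0.19 ± 0.06, adjusted p = 0.066 with the block). Only Decr1 of these was called, while Eci2 also lay below its controls in every library.

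Electron transfer from the acyl-CoA dehydrogenases to ubiquinone and the uncoupling protein made up the last step, where all 4 genes fell in iCKO (median -1.77) and 3 of 4 were called lower in mCKO with the block (median -0.35). Etfa and Etfb encode the subunits of the electron transfer flavoprotein. Etfa stood at 804, 896 and 766 CPM in CTR2 and 307, 259 and 285 in iCKO (-1.53 ± 0.15, adjusted p = 0.00017). Etfb stood at 758, 740.4 and 698 CPM in CTR2 and 266, 213 and 309 in iCKO (-1.48 ± 0.17, adjusted p = 0.00037). The subunits kept 34.5% and 35.9% of their control means. In mCKO Etfa measured 602, 619 and 520.3 CPM against 755, 725 and 658 in CTR1 (-0.30 ± 0.06, adjusted p = 0.0098 with the block). Etfb measured 617, 619.6 and 691 CPM against 716, 719.7 and 794 (-0.21 ± 0.06, adjusted p = 0.039 with the block). Neither overlapped its controls. The Etfb exons overlap those of Gm45233 on the same strand over 53.0% of their length, so its counts are uncertain.

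Etfdh, the oxidoreductase that passes the electrons to ubiquinone, had the lowest fold change of the 3 electron transfer genes. It went from 958, 929 and 905 CPM in CTR2 to 256, 228 and 210.4 in iCKO (-2.01 ± 0.15, adjusted p = 7.3e-05). In the constitutive experiment Etfdh went from 957, 899 and 848 CPM in CTR1 to 698, 758 and 591 in mCKO (-0.41 ± 0.07, adjusted p = 0.0036 with the block), also without overlap. Ucp3, a mitochondrial carrier of the uncoupling protein family that responds to fatty acid supply, had the largest standard error of the 32 in iCKO. It stood at 48.6, 45.8 and 83.8 CPM in CTR2 and 16.8, 10.2 and 3.69 in iCKO (-2.54 ± 0.49, adjusted p = 0.0037). The groups did not overlap, but iCKO replicate 3 held 0.273 times the mean of the other two. In CTR1 Ucp3 stood at 61.1, 50.3 and 41.2 CPM and in mCKO at 26.9, 36.8 and 54.7 (-0.40 ± 0.43, adjusted p = 0.65 with the block). Replicate 3 was the lowest of CTR1 and the highest of mCKO. With both of these left out the call was made (-0.81 ± 0.17, adjusted p = 0.048).

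Levels per length put the genes on 1 scale within a group. CPM per kilobase of merged exon, as mean ± SD of 3 libraries, was highest for Fabp3 in all 4 groups, at 6197 ± 293 in CTR1 and 4407 ± 325 in CTR2. Next in CTR1 came Acaa2 (796 ± 62.9), Etfb (639 ± 37.9), Acadl (580.2 ± 21.5) and Lpl (549.6 ± 15.1), and the libraries of Acadl and Lpl overlapped. Lpl stood at 1127 ± 200.1 in CTR2, a difference between experiments that was not tested. At the low end stood Ucp3 (16.2 ± 3.17 in CTR1), Cpt1a (11.9 ± 1.34) and Acot1 (5.20 ± 1.31).

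The order between these ends depended on the length used. Merged exons of a gene can be several times as long as its longest coding transcript, and for Lpl the level per kilobase of that transcript was 1399 ± 38.4 CPM in CTR1, 2871 ± 509.6 in CTR2 and 595 ± 62.5 in iCKO. On that scale, chosen after the data were seen, Fabp3 was again the highest and Acot1 the lowest in all 4 groups, and Lpl was second in all 4. After Lpl in CTR1 came Etfb (832 ± 49.5) and Acaa2 (796 ± 62.9). In iCKO Acadl was second per merged exon (399 ± 38.1) and came after Lpl per transcript (418 ± 39.9). Slc27a1 stood at 97.3 ± 6.49 per transcript kilobase in CTR2 and 19.4 ± 4.88 in iCKO, where Cpt1a stood at 18.01 ± 6.26. Per merged exon these iCKO levels were 9.28 ± 2.34 and 10.2 ± 3.54, so the order of the pair turned with the length.

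**Figure D4:**
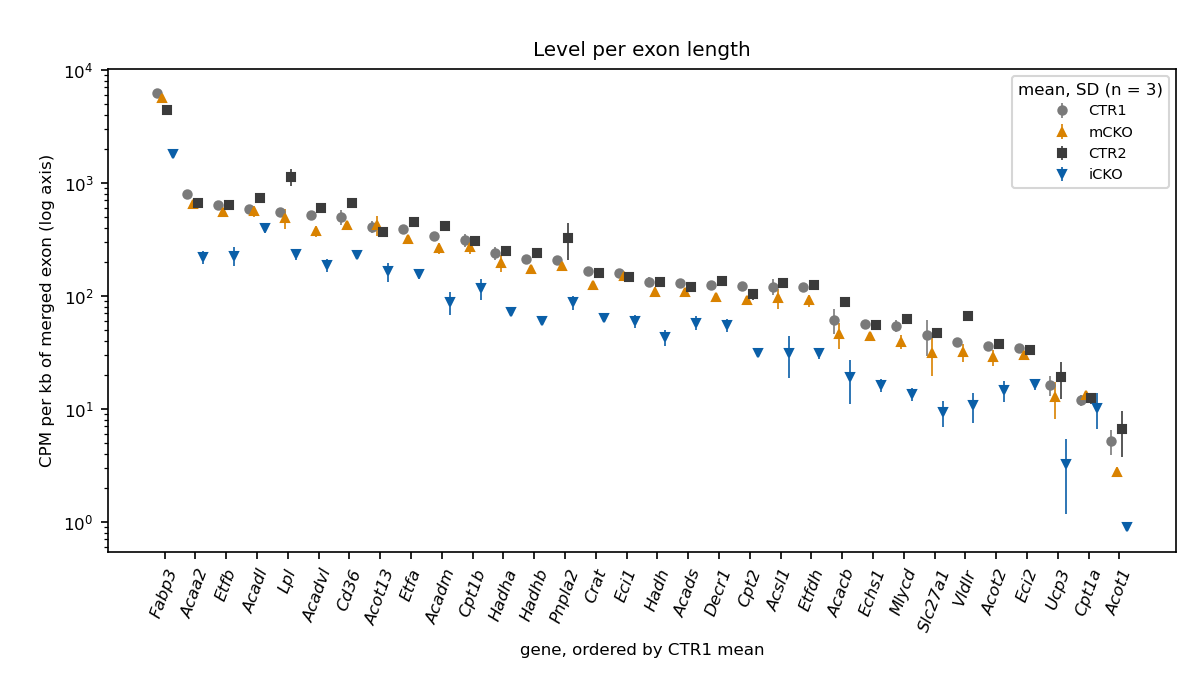
Level per exon length (CPM per kilobase of merged exon, log axis) of the 32 genes in CTR1, mCKO, CTR2 and iCKO, as the mean with the SD of 3 libraries, ordered by the CTR1 mean. Fabp3 lies above the rest, Acot1 lies lowest, and the iCKO mean is the lowest of the 4 for every gene, with overlapping error bars for Cpt1a.

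The changes in the 2 experiments were compared in 1 fit of all 12 libraries as the log2 fold change of mCKO against CTR1 minus that of iCKO against CTR2. Of the 32 genes 31 had a positive difference past an adjusted p of 0.05, so their change was less negative in the constitutive knockout, against 11.0% of 13871 genes called in that direction and 9.88% in the other. The median difference was 1.34, against 0.030 for all genes. It was widest for Vldlr (2.39 ± 0.28, edgeR adjusted p = 0.00025), Ucp3 (2.22 ± 0.61, 0.023), Lpl (2.15 ± 0.25, 0.00020) and Acot1 (2.02 ± 0.38, 0.0039). It was narrowest among called genes for Acads (0.82 ± 0.20, 0.012), Acadl (0.85 ± 0.18, 0.0074) and Eci2 (0.85 ± 0.17, 0.0051). Cpt1a was not called (0.48 ± 0.30, 0.28).

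For Ddx5 itself the difference was 0.32 ± 0.25 (edgeR adjusted p = 0.39), so the decrease of the targeted transcript was not shown to differ between the knockouts. Ucp3 lost its call in the difference without CTR1 replicate 2 (adjusted p = 0.058), CTR1 replicate 3 (0.058), CTR2 replicate 3 (0.076), iCKO replicate 2 (0.057) or mCKO replicate 2 (0.051). It was also lost with library totals and the block together (edgeR adjusted p = 0.064), and with the block without number 2 (0.13) or 3 (0.063). The knockouts differ in the Cre driver line, in tamoxifen, in the time since deletion and in the table their counts came from. They may also differ in age, which is given only for mCKO and CTR1, and these cannot be told apart.

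Other genes of fatty acid handling, from a list of 47, showed more mixed changes. In mCKO with the block 10 of 44 tested were called lower and 2 higher, against 6.45% and 7.32% of all tested genes. Their median was -0.10. Those with the smallest adjusted p were Ucp2, an uncoupling protein of many tissues (0.96 ± 0.07, edgeR adjusted p = 4.8e-05), Ech1, a dienoyl-CoA isomerase (-0.46 ± 0.06, 0.00082), and Acot7, a thioesterase (-0.44 ± 0.07, 0.0029). The other higher gene, named after its values were seen, was the acyl-CoA synthetase gene Acsl6 (0.88 ± 0.15, 0.0085). Acsl6 was called lower in iCKO (-1.77 ± 0.26, edgeR adjusted p = 0.0010), with a difference between experiments of 2.69 ± 0.48 (0.0026). In iCKO 27 of 44 were called lower and 5 higher, against 19.5% and 25.2% of all tested genes. Their median was -0.74. The smallest adjusted p were those of Plin5, a coat protein of lipid droplets in oxidative tissue (-2.62 ± 0.17, 4.9e-05), and of the acyl-CoA dehydrogenase family members Acad11 (-2.17 ± 0.17, 9.0e-05) and Acad12 (-1.77 ± 0.16, 0.00012).

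The 5 higher genes in iCKO, named after their values were seen, do not belong to the mitochondrial cycle itself. They were Acot9, a thioesterase (1.93 ± 0.19), the acyl-CoA synthetase genes Acsl4 (1.13 ± 0.17) and Acsl5 (0.86 ± 0.16), Angptl4, a secreted inhibitor of lipoprotein lipase (1.001 ± 0.26), and Plin2, a droplet coat protein (0.67 ± 0.18). Angptl4 stood at 7.79, 10.7 and 14.9 CPM in CTR2 and 21.1, 27.3 and 18.4 in iCKO, so it was higher without overlap while its target Lpl was lower. In the difference between experiments 18 of 45 were called higher and 2 lower, against 11.0% and 9.88% of all tested genes. The smallest edgeR adjusted p were those of Plin5 (2.18 ± 0.20, 6.7e-05), Acad11 (2.18 ± 0.21, 7.8e-05) and Acad12 (1.67 ± 0.17, 0.00012). The 2 lower, again named after their values were seen, were Acot9 (-2.05 ± 0.26, 0.00038) and Acsl4 (-0.97 ± 0.20, 0.0060).

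Among 17 regulators of the pathway, 12 were called lower and 0 higher in iCKO, with a median of -1.50, and none was higher at an unadjusted p under 0.05. Of all tested genes 19.5% were called lower and 25.2% higher there. The smallest adjusted p were those of Rxrg, a partner receptor of PPAR (-2.49 ± 0.21, edgeR adjusted p = 0.00010), Perm1, a muscle regulator that acts with PGC-1 and ERR (-2.78 ± 0.27, 0.00018), and Sirt3, a mitochondrial deacetylase (-1.68 ± 0.18, 0.00024). In mCKO with the block 4 were called lower and 0 higher (1 higher at an unadjusted p under 0.05), against 6.45% and 7.32% of all tested genes. The 4 were Esrra, which encodes ERR alpha (-0.47 ± 0.07, 0.0016), Perm1 (-0.41 ± 0.07, 0.0028), Ppara, which encodes PPAR alpha (-0.34 ± 0.08, 0.018), and Rxrg (-0.22 ± 0.06, 0.038). The difference was called higher for 11, against 11.0% of all tested genes in that direction. The smallest edgeR adjusted p were those of Rxrg (2.31 ± 0.27, 0.00023), Sirt3 (1.59 ± 0.19, 0.00028) and Perm1 (2.43 ± 0.32, 0.00049). Whether the regulators and the 32 genes are linked in these hearts was not tested.

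A list of other mitochondrial genes, mostly of structure and import, had smaller median changes than the 32. It also held Cs, Tfam, Polg and Lonp1, which are not structure or import genes. Of 20 genes 11 were called lower and 1 higher in iCKO, against 19.5% and 25.2% of all tested genes, with a median of -0.52. The smallest adjusted p were those of Chchd3, a cristae protein (-2.00 ± 0.16, edgeR adjusted p = 8.4e-05), Vdac1, the outer-membrane channel (-1.26 ± 0.14, 0.00031), and Cs, citrate synthase (-1.48 ± 0.17, 0.00037), and the higher one, named after its value was seen, was the import receptor gene Tomm70a (0.64 ± 0.15). In mCKO with the block 7 of 20 were called lower and 0 higher (0 also at an unadjusted p under 0.05), against 6.45% and 7.32% of all tested genes. Their median was -0.13, and the smallest edgeR adjusted p were those of Opa1 (-0.33 ± 0.06, 0.0064), Cs (-0.27 ± 0.06, 0.016) and Phb2 (-0.29 ± 0.07, 0.020). In the difference 8 were called higher and 1 lower, against 11.0% and 9.88% of all tested genes. The smallest edgeR adjusted p were those of Vdac1 (1.18 ± 0.16, 0.00047), Chchd3 (1.87 ± 0.26, 0.00061) and Cs (1.26 ± 0.21, 0.0020).

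**Figure D5:**
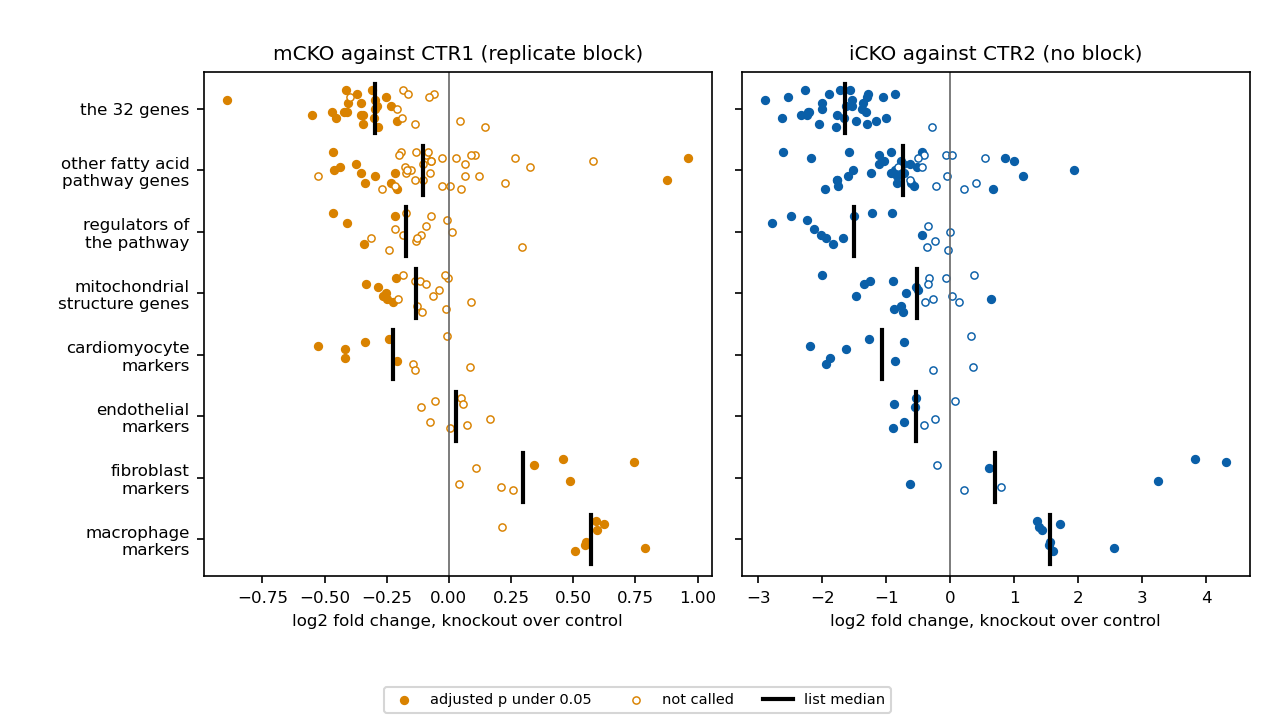
Log2 fold changes of single genes (points; filled where an adjusted p of 0.05 was passed) in the 32 genes, the other gene lists and the cell type markers, for mCKO against CTR1 with the block (left) and iCKO against CTR2 (right), with each list's median as a vertical bar. The axes of the panels differ in scale. The median of the 32 genes is -0.30 on the left and -1.65 on the right, and that of macrophage markers is 0.57 and 1.55.

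Markers of cell types did not all move with the pathway. In iCKO the median log2 fold change was negative for cardiomyocyte, endothelial and erythroid markers. It was positive for macrophage, fibroblast, smooth muscle and skeletal muscle markers and for the 1 adipocyte marker tested. For comparison with all marker counts, 19.5% of all tested genes were called lower and 25.2% higher in iCKO. With the block the shares in mCKO were 6.45% and 7.32%. Of 10 cardiomyocyte markers 7 were called lower in iCKO (median -1.07), and their summed level was 116135 to 126678 CPM in CTR2 and 57114 to 68737 in iCKO. In mCKO with the block 6 of 10 were called lower (median -0.22), with sums of 90384 to 126342 CPM in CTR1 and 74746 to 108875 in mCKO. Replicate 3 held the lowest sum in both groups. Replicates 1 and 2 stood at 119835 and 126342 CPM in CTR1 and at 106929 and 108875 in mCKO. The libraries numbered 3 also held the highest endothelial, fibroblast, macrophage and smooth muscle sums of CTR1 and mCKO. Of the 32 pathway genes 28 had a lower log2 fold change than the cardiomyocyte median in iCKO and 22 in mCKO. The part of cell makeup in the pathway values was not tested.

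Macrophage markers were called higher for 8 of 8 in iCKO (218 to 281 CPM summed in CTR2, 558 to 1017 in iCKO) and 7 of 8 in mCKO with the block (323 to 407 in CTR1, 435 to 658 in mCKO). Fibroblast markers were called higher for 4 of 8 and lower for 1 in iCKO (902 to 1072 CPM in CTR2, 3092 to 4946 in iCKO). In mCKO with the block 4 of 8 were higher (1000 to 1696 CPM in CTR1, 1123 to 2047 in mCKO). The log2 fold changes of single fibroblast markers in iCKO ran from -0.63 to 4.31, with 2 of 8 negative. Over all libraries the collagen genes varied most, from 53.1 to 1275 CPM for Col1a1, 60.1 to 1008 for Col1a2 and 35.1 to 2010 for Col3a1. Whether the sums follow collagen expression or fibroblast number was not tested. Endothelial markers, of interest because Cd36 and Lpl protein act in capillaries, were called lower for 5 of 8 in iCKO (1574 to 1740 CPM in CTR2, 1011 to 1144 in iCKO) and for 0 of 8 in mCKO with the block, by edgeR (0 lower and 1 higher at an unadjusted p under 0.05; 1552 to 2789 in CTR1, 1574 to 2622 in mCKO), where replicate 3 held the highest sum in both groups. Without any 1 of the CTR2 libraries 1 of 8 endothelial markers was called lower in iCKO, and without iCKO replicate 1 it was 2 of 8. Erythroid markers were called lower for 5 of 5 in iCKO (median -2.32) and for 4 of 5 with the block. Their sums were 416, 1169.9 and 257 CPM in CTR2 and 60.1, 63.7 and 260.4 in iCKO, so the groups overlapped. CTR2 replicate 2 was the highest, and without it 0 of 5 were called by edgeR (2 lower at an unadjusted p under 0.05). Without iCKO replicate 1 it was 1 of 5, and without iCKO replicate 2 it was 0 of 5 (4 lower at an unadjusted p under 0.05). In the constitutive experiment the erythroid sums were 208 to 332 CPM in CTR1 and 189 to 347 in mCKO, with 0 of 5 called in mCKO with the block, also at an unadjusted p under 0.05. Smooth muscle markers were called higher for 3 of 4 and lower for 1 in iCKO, and higher for 1 in mCKO with the block.

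Skeletal muscle markers moved in both directions. Of 8 listed 4 were tested, and 3 were called higher and 1 lower in iCKO (median 2.75). The fast troponin genes Tnnt3 (5.88 ± 0.29, edgeR adjusted p = 2.0e-05) and Tnni2 (3.73 ± 0.39, 0.00022) and the fast myosin light chain gene Mylpf (1.77 ± 0.43, 0.010) were higher. Tnnt3 stood at 0.304, 0.659 and 0.510 CPM in CTR2 and 23.5, 30.1 and 34.4 in iCKO, and Tnni2 at 0.860, 1.98 and 1.33 and 11.97, 17.5 and 26.3. The lower one was Ckm, the muscle creatine kinase gene, which cardiomyocytes also express (-1.36 ± 0.15, edgeR adjusted p = 0.00029). In mCKO with the block Tnnt3 (1.76) and Tnni2 (1.26) were called higher and Ckm (-0.24) lower (median 0.95). The summed level, nearly all of it Ckm, was 3269.5 to 3517 CPM in CTR1, 2661 to 3006 in mCKO, 2618 to 2834 in CTR2 and 962 to 1216 in iCKO. The skeletal muscle myosin genes Myh1, Myh2 and Myh4 were at 0 in 5, 6 and 5 of the 12 libraries and reached at most 0.0510, 0.101 and 0.0510 CPM.

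Adipocytes also express Lpl, Cd36 and Pnpla2 strongly. The 8 adipocyte markers summed to 30.02 to 51.6 CPM in CTR1, 36.1 to 40.8 in mCKO, 27.8 to 30.5 in CTR2 and 32.5 to 40.2 in iCKO, where the sums lay above CTR2 without overlap. Most of each sum was Cidea (26.7 to 39.7 CPM over all libraries). The defining adipocyte genes Adipoq, Plin1 and Cidec were at 0 in 4, 3 and 3 of the 12 libraries and reached at most 2.64, 1.76 and 3.24 CPM. By edgeR 0 of 3 tested markers were called in mCKO with the block (1 lower at an unadjusted p under 0.05) and 0 of 1 in iCKO (1 higher at an unadjusted p under 0.05). These counts depended on the libraries. With the block and without number 1, 4 of 5 tested were called lower in mCKO (median -2.17), against 5.52% of all tested genes. Without number 2 it was 0 of 5 (1 lower at an unadjusted p under 0.05), and without number 3 it was 0 of 1. In iCKO without CTR2 replicate 2, 1 of 2 was called lower. The part of the skeletal muscle and adipocyte markers in the pathway values was not tested.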

How the data were processed

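Polyadenylated RNA of 12 mouse left ventricle samples was sequenced, extracted with Trizol and prepared with a TruSeq stranded mRNA kit, per the labels' protocols. The authors deposited raw read counts per gene, not normalized, in 1 table for mCKO and CTR1 and 1 for iCKO and CTR2. Per the submitters' processing notes HISAT2, DESeq and GRCm38 were used; the sources used here do not give the counting tool, the annotation or the use of strand. Libraries held 19682268 to 25871882 counts, and no pair agreed within sampling noise. The lowest count of any of the 32 genes was 93.

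The counts were tested with edgeR 4.0.16 in R 4.3.3 (limma 3.58.1), after filterByExpr (minimum count 10, minimum total 15), with TMM scaling, the quasi-likelihood test and Benjamini-Hochberg adjustment over all tested genes, 13353 for mCKO, 13548 for iCKO and 13871 for their difference. A gene is called where its adjusted p is under 0.05. CPM use TMM-scaled library sizes. The log2 CPM behind the deviations of libraries and the principal components had a prior count of 2. Sample groups came from the labels. The fits were tested on simulated data with 200 changed genes. In mCKO against CTR1, 12% of simulated 1.5-fold changes were recovered without the block and 6% with it. For 2-fold changes the shares were 56% and 48%, and for 4-fold changes 98% in both fits. In iCKO against CTR2 without the block they were 6%, 56% and 98%. Most changes of the size seen in mCKO would thus be missed at such a spread. The simulated data held no shift by replicate number. Alternatives were the replicate block, library totals without TMM, DESeq2 1.42.0, limma-voom, no filter and leaving out libraries.

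The replicate numbers of CTR1 and mCKO were treated as pairs because same-numbered libraries had correlated deviations from the mean of their group (r was 0.464, 0.532 and 0.823 at number 1, 2 and 3, over 13353 genes; each had to exceed 0.1). Numbers 1 and 2 correlated as well with each other (0.529 and 0.553), and both negatively with number 3 (-0.680 to -0.623). The rule therefore could not tell pairing by number from a shift shared by the libraries numbered 3. What a number stands for is not in the labels.

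The 32 genes and the other lists were chosen with earlier results of these data known. All 32 are named. Of the other pathway genes, regulators and mitochondrial genes the 3 called with the smallest adjusted p are named, or all called where 6 or fewer. Marker lists are given by counts and sums, and the single markers named were chosen after their values were seen. Exon lengths, overlaps, 50-base stretches shared between genes and coding-sequence identity came from the GENCODE M21 annotation of GRCm38, and promoter sequences from RefSeq (GRCm38.p6). Protein sequences were not used here.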

Additional observations from a re-analysis of the deposited data

Results flagged for a closer look

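The change differed between the knockouts for 31 of the 32 genes, by a test of the difference itself (edgeR quasi-likelihood test over all 12 libraries, adjusted p under 0.05). The log2 change in mCKO minus that in iCKO was positive for each, and 11.0% of all genes tested were called in this direction. In uptake the difference was 1.34 for Cd36, 1.21 for Fabp3, 1.83 for Slc27a1, 2.15 for Lpl and 2.39 for Vldlr. Among stored lipid, activation and thioesterase genes the difference was 1.76 for Pnpla2, 1.77 for Acsl1, 2.02 for Acot1, 1.06 for Acot2 and 1.26 for Acot13. In the carnitine shuttle and malonyl-CoA control the difference was 1.85 for Acacb, 1.80 for Mlycd, 1.21 for Cpt1b, 1.35 for Cpt2 and 0.94 for Crat. For the acyl-CoA dehydrogenases of beta-oxidation the difference was 1.25 for Acadvl, 0.85 for Acadl, 1.92 for Acadm and 0.82 for Acads. Later in the cycle the difference was 1.55 for Hadha, 1.75 for Hadhb, 1.46 for Echs1, 1.38 for Hadh and 1.30 for Acaa2. Among the auxiliary enzymes the difference was 1.26 for Eci1, 0.85 for Eci2 and 0.95 for Decr1. In electron transfer and uncoupling the difference was 1.27 for Etfa, 1.30 for Etfb, 1.65 for Etfdh and 2.22 for Ucp3. For Ucp3 the standard error was 0.61 and the adjusted p 0.023. Cpt1a (0.48, adjusted p = 0.28) was the gene not called. The experiments differ in the Cre line, tamoxifen, the time since deletion and the deposited table, and may differ in age. These cannot be told apart here.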

How the results depend on the processing

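In the inducible comparison the 31 calls were the same genes under TMM or library totals, edgeR, DESeq2 or limma-voom, with and without the filter, with the block and without any 1 library (31 to 31 lower, median -1.73 to -1.60). The median was -1.44 with library totals and -1.45 with these and the block. In the difference 30 to 31 genes were called higher without any 1 library (median 1.25 to 1.41), the 1 lost being Ucp3. With the block and a whole number left out, Acadl lost its iCKO call without number 2 (adjusted p = 0.060), and the difference lost 6 calls without number 1, 7 without 2 and 1 without 3. With library totals and the block the difference lost Ucp3 (adjusted p = 0.064). Levels per kilobase of the longest coding transcript instead of merged exon moved 12 of 16 levels by over 1 SD. Without any 1 library mCKO gave 0 calls and a median of -0.35 to -0.23. For Acot13 in mCKO the log2 fold change was 0.056, against -0.11 to 0.16 without 1 library (-0.017 without CTR1 replicate 2, -0.11 without mCKO replicate 3), and without both libraries numbered 3 -0.011, or -0.012 with the block. For Acadl it was -0.056, against -0.12 to 0.029 without 1 library (the highest without mCKO replicate 3), 0.018 with library totals, 0.014 with these and the block, and 0.0042 without both libraries numbered 3, with or without the block. For Cpt1a in iCKO it was -0.29, against 0.014 with the block and without number 3. The cause of these reversals was not tested; settings that leave out libraries have fewer samples.

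The replicate block (pairing by number) changed most calls in mCKO, where the fit without it and limma-voom gave 0. Members called lower were 22 with the block, 17 with library totals and the block, 5 by DESeq2 and 18 without both libraries numbered 3. With the block and a whole number left out, chosen after seeing the data, they were 18, 17 and 6 without number 1, 2 and 3. In the same order of the 7 settings, other pathway genes called lower were 10, 6, 3, 9, 5, 5 and 3, and regulators 4, 3, 1, 2, 5, 3 and 1. Other pathway genes called higher were 2 with the block, 3 with library totals and the block, 1 without both numbered 3, and 4, 2 and 1 with the block without numbers 1, 2 and 3. Mitochondrial genes called lower were 7 with the block, 1 with library totals and the block, 4 without both numbered 3, and 2 and 2 with the block without numbers 1 and 2. Ddx5 was called at -1.26 with the block, -1.18 with library totals and the block, -1.30 by DESeq2, -1.45 without both numbered 3, and -1.16, -1.16 and -1.45 with the block without numbers 1, 2 and 3.

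In iCKO the numbers did not pair (r = 0.058, -0.090 and -0.161), and the block left 31 members lower. Other pathway genes called lower were 17 with the block without number 2, mitochondrial genes lower 6 without number 1 and 6 without 2, and mitochondrial genes higher 2 with library totals and 0 with the block without number 1 or 2. In the difference, other pathway genes called lower were 4 with library totals and the block and 1 with the block without number 2, where 8 were higher, and 7 regulators were higher. Mitochondrial genes lower were 0 with the block without any number, and those higher 5 with library totals, 5 to 11 without 1 library, and 5 with the block without number 1 or 2. Library totals gave 1103 higher and 2145 lower genes in the difference, against 1521 and 1371. All 32 genes passed the filter on low counts, so depth took none of them out.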
